A study of Mus musculus with 96 samples.

Results

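The insulin-like growth factor (IGF) axis was followed here through 10 genes, taken by name from the gene table: the ligand Igf1, its receptor Igf1r, the binding proteins Igfbp2, Igfbp3, Igfbp4, Igfbp5, Igfbp6 and Igfbp7, and the adaptors Irs1 and Irs2. These are 10 of the 54150 rows of the table, and each name matched 1 row. They were measured by RNA-seq in 96 samples of the mouse muscle cell line C2C12 in 35 groups, 26 groups of 3 samples and 9 of 2, with between 6458295 and 15366745 estimated counts per sample. Proliferating myoblasts, cells kept for 1 day in low serum ("day 1 cells") and myotubes after 4 days in low serum were treated with inhibitors of mitochondria, and the question was how each state responds. The labels and methods do not say whether replicates came from separate cultures, so p-values measure the spread between these samples, which may be technical.

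All myoblasts carried a doxycycline-inducible transgene introduced by lentivirus, were grown in 10% dialyzed fetal bovine serum and received 300 ng/ml doxycycline. The transgene was luciferase in the control line, LbNOX (a bacterial water-forming NADH oxidase, cytosolic), mitoLbNOX (the same enzyme directed to the mitochondrial matrix) or NDI1 (a yeast NADH dehydrogenase that piericidin does not block). Each line is a separate stable line, and whether it is clonal is not given in the sources used here. Day 1 cells and most myotubes carried no transgene and received no doxycycline, and they were kept in 2% horse serum. A further set of myotubes was transduced with adenovirus for GFP, or for LbNOX with GFP. Treatment lasted 10 hr with DMSO (vehicle), 0.5 µM piericidin (complex I), 0.5 µM antimycin (complex III) or 1 µM oligomycin (ATP synthase), and myotubes also received 0.5 µM BAM15 (an uncoupler), alone or with oligomycin, or oligomycin with piericidin. For low oxygen, myotubes were moved to 5% oxygen on the night before DMSO or oligomycin was added and stayed there throughout, so their exposure to it was longer than the 10 hr of the drug. Control and LbNOX myoblasts were also kept for 48 hr in 20 µg/ml chloramphenicol, an inhibitor of mitochondrial translation, with 200 µM uridine and their own 48 hr DMSO samples. Because transgene, doxycycline and serum changed together with the state, their parts in a difference between myoblasts and the other states cannot be told apart.

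IGF1 is a secreted growth factor that binds the receptor tyrosine kinase IGF1R, and the activated receptor phosphorylates the adaptor proteins IRS1 and IRS2, which recruit PI3-kinase and so start the AKT and mTOR branch. In the fluid around cells, IGF binding proteins hold IGF1 and IGF2 and limit or prolong their access to the receptor. IGFBP6 prefers IGF2, and IGFBP7 binds IGFs weakly and is often counted as a related protein. In muscle, IGF signalling supports both the growth of myoblasts and their differentiation, and C2C12 cells make their own IGFs as they differentiate.

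The promoter windows of 5 members are shown because the results below turn on these genes: Igf1, Igfbp4 and Igfbp5 were the members that differed most between myoblasts and myotubes, and Irs1 and Irs2 changed in opposite directions in myoblasts with piericidin or antimycin. Each is the 250 bases before the gene start of RefSeq (GRCm38.p6), written 5′ to 3′ on the strand of the gene, with every E-box in capitals. An E-box is CANNTG, the general form of sites for bHLH factors, and these letters do not single out myogenic ones.
Igf1 (chr10:87860861-87861110, plus strand): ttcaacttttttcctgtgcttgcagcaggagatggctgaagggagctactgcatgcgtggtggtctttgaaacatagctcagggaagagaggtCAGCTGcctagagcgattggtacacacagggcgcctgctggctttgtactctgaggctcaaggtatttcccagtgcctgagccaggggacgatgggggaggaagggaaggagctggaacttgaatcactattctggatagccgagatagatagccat
Igfbp4 (chr11:99040994-99041243, plus strand): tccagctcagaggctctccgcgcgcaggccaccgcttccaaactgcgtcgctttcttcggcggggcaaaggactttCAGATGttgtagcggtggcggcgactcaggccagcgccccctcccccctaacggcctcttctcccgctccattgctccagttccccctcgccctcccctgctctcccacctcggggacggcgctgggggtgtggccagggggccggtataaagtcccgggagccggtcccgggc
Igfbp5 (chr1:72874866-72875115, minus strand): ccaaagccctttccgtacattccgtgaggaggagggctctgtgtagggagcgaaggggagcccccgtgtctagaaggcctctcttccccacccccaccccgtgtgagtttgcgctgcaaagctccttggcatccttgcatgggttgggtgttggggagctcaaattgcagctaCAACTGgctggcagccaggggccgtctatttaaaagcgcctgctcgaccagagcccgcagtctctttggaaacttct
Irs1 (chr1:82291440-82291689, minus strand): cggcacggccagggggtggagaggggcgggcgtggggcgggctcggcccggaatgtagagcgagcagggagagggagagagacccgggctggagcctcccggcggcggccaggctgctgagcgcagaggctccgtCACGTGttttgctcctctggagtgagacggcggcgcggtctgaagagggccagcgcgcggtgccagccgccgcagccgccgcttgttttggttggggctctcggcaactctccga
Irs2 (chr8:11008930-11009179, minus strand): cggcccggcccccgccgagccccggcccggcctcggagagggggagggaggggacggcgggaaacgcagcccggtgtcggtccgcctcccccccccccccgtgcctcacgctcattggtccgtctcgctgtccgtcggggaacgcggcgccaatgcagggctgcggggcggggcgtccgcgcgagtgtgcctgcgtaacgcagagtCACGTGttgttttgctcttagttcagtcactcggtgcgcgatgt
All 10 members matched a RefSeq window, Igfbp2 with 2, giving 11 windows. An E-box was present in the windows of 8 of 10 members, beside 66.2% of 32851 windows of the same length. The E-box CACGTG, a special case of CANNTG that reads the same on both strands, was present for 3 of 10 members (Igfbp2, Irs1 and Irs2), beside 6.02% of all windows. The C/EBP-ATF element TGATGNAA and the forkhead element GTAAACA, searched on both strands, were in the windows of 0 of 10 members, beside 3.45% and 3.17% of all windows. These are matches of letters in a fixed window, and nothing about binding was measured. The Igf1 window starts inside the annotated Igf1 locus (chr10:87858265-87937042), since that gene has several starts.

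Values are CPM, a gene's share of its library's counts on a common scale, with TMM factors over all 96 samples, and every test is edgeR's quasi-likelihood F test with Benjamini-Hochberg adjustment over all genes of its fit. A gene is called where the adjusted p is below 0.05. The labelled states carried their markers: the summed level of 12 myotube genes ran from 18.5 to 24.3 CPM in control myoblasts with DMSO, from 14000 to 14500 CPM in day 1 cells and from 14900 to 15500 CPM in myotubes, and that of 8 proliferation genes from 1980 to 1990, from 334 to 377 and from 223 to 272 CPM. In myotubes against day 1 cells, 5 of the 12 myotube genes were higher and 2 lower, where 35.6% of genes were called. Their median log2 fold change was 0.145, so these genes set the 2 states little apart. The paper describes the day 1 cells as mostly out of the cell cycle and not yet differentiated. Of 10 markers of other cell types, 7 were under 1 CPM in each state, 2 of these at 0. All 10 summed to 32.8 to 36.8 CPM in myoblasts, 43.9 to 45.3 in day 1 cells and 47.1 to 50.3 in myotubes. Of the 3 that were tested, 2 were higher in myotubes than in myoblasts, where 69.4% of genes were called. The 4 reserve and muscle stem cell markers summed to 56.7 to 64.9, 84.4 to 88.3 and 73.7 to 76.3 CPM. The part of unfused cells in each state was not tested. Each transgene's reads were at 0 in every sample that should not carry it, where LbNOX is carried by LbNOX and mitoLbNOX samples and GFP by both kinds of transduced myotubes. In bulk RNA, fewer cells of a type and less RNA per cell cannot be told apart.

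Igfbp2, Igfbp3 and Igfbp7 differed between samples of the same group along a letter and number that the labels give each sample, which was taken as its position on a plate. Within groups, the samples of rows A and H (n = 24) lay below the other 72 by 0.93 on the log2 scale for Igfbp2 and Igfbp3 and by 0.395 for Igfbp7. Of 13357 genes, 34, 36 and 495 lay further from 0 in this measure than these 3. For the other 7 members the difference was between -0.064 (Igf1r) and 0.121 (Igf1). The deviations of Igfbp2 and Igfbp3 from their group means ran together (Pearson r = 0.86 over 96 samples not known to be independent, a description without a test). Calls of the main fit described for these 3 genes are therefore given with the value under outer or inner well as a covariate. The exception is within day 1 cells, where it could not be fitted. Values that did not pass are not always given with it, and what the position stands for was not tested.

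**Figure D1:**
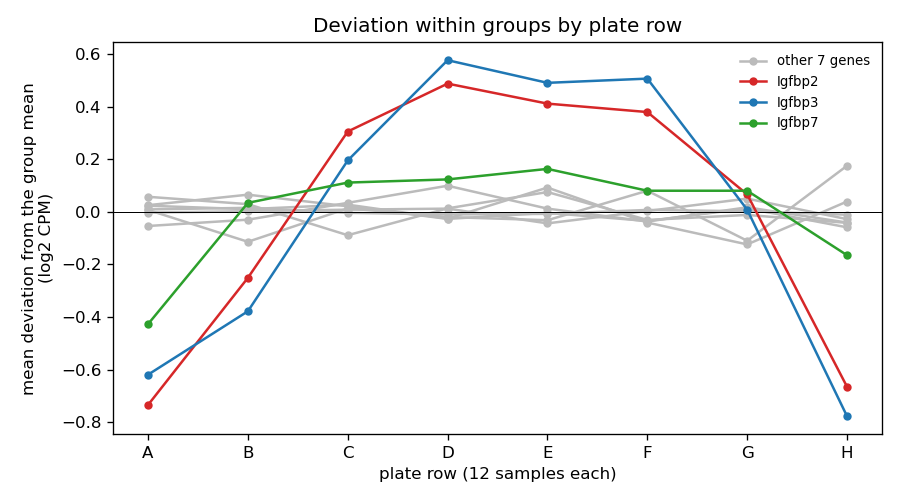
Mean deviation of each gene from its own group mean (log2 CPM, vertical axis) by the row letter of the plate code (horizontal axis, 12 samples per row). Igfbp2, Igfbp3 and Igfbp7 lay lowest in the outer rows, by 0.93, 0.93 and 0.395 in rows A and H against the others, and the other 7 genes are drawn in grey.

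With DMSO, Igfbp6 was the member with the highest level per length of exon in all 3 states, at 123 ± 2.92 CPM per kb in control myoblasts, 102 ± 1.84 in day 1 cells and 103.5 ± 2.81 in myotubes (SD, n = 3 each). In myoblasts Igfbp7 (23.5 ± 11.3 CPM per kb) and Igfbp2 (10.4 ± 3.91) followed, then Irs1 (4.19 ± 0.370), Igfbp5 (2.12 ± 0.199), Igfbp4 (1.30 ± 0.262), Igf1r (1.12 ± 0.0552), Irs2 (0.591 ± 0.0707), Igfbp3 (0.307 ± 0.142) and Igf1 (0.0460 ± 0.0181). Neighbours in this order that lay closer than the sum of their SDs were Igfbp7 and Igfbp2, and Igfbp4 and Igf1r. In myotubes the order was Igfbp6, Igfbp5 (52.4 ± 2.26 CPM per kb), Igfbp7 (39.1 ± 0.934), Igfbp4 (31.5 ± 2.69), Igfbp2 (18.2 ± 1.66), Igf1 (4.12 ± 0.107), Irs1 (3.78 ± 0.385), Igfbp3 (2.91 ± 0.788), Igf1r (1.30 ± 0.136) and Irs2 (0.698 ± 0.180). There, Irs1 lay within the summed SDs of both Igf1 and Igfbp3. In day 1 cells the binding proteins Igfbp5 (45.8 ± 1.78 CPM per kb) and Igfbp4 (11.1 ± 0.525) already exceeded their myoblast levels, and Irs1 (8.06 ± 0.863) was at its highest of the 3 states. The length is that of all annotated exons joined, so a gene with many alternative exons, such as Igf1, reads lower than its used transcripts would.

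**Figure D2:**
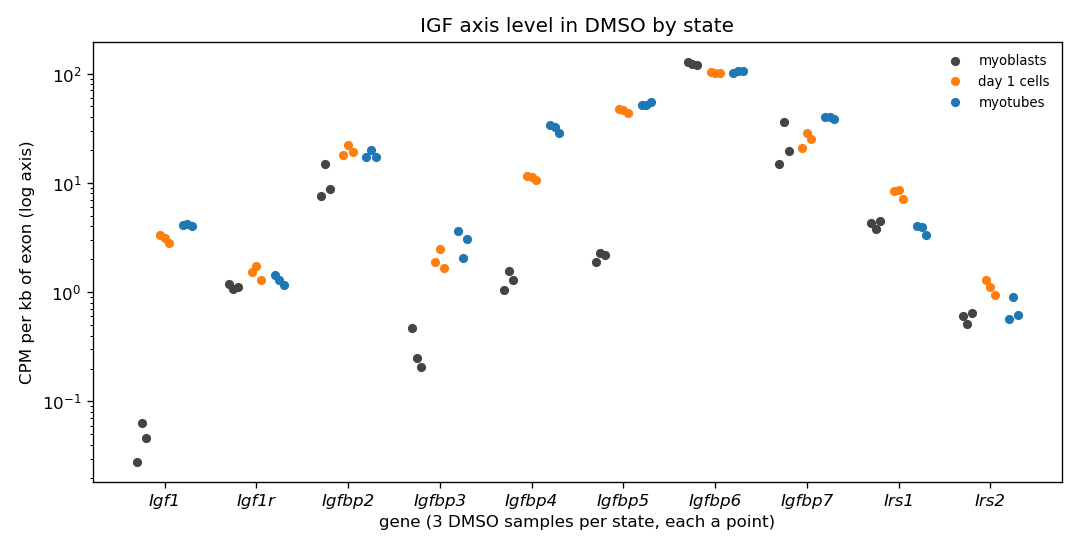
Level of each gene in CPM per kb of exon (log axis) in DMSO-treated control myoblasts, day 1 cells and myotubes, with 3 samples per state as points. Igf1, Igfbp4 and Igfbp5 rose by the largest steps from myoblasts to day 1 cells, and Igfbp6 was highest throughout, at 123, 102 and 103.5 CPM per kb.

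Of the members, the ligand and 2 binding proteins differed most between myotubes and control myoblasts. Igf1, the ligand, was barely detected in control myoblasts, with 3, 9 and 5 counts in the 3 DMSO samples, and stood at 33.2, 31.3 and 27.9 CPM in day 1 cells and at 40.8, 41.9 and 39.8 CPM in myotubes. The myotube level was 84.5-fold that of myoblasts (log2 fold change 6.40 ± 0.211 SE, adjusted p = 4.53e-21), a ratio whose denominator rests on those few counts and on the luciferase line. With DMSO, Igf1 averaged 1.49 CPM in LbNOX, 1.30 in mitoLbNOX and 2.76 in NDI1 myoblasts beside 0.456 in the luciferase line, and a ratio to any of these lines would be smaller. Igfbp5, the binding protein known to rise in differentiating muscle cells, went from 11.4, 13.7 and 13.2 CPM in myoblasts to 285, 276 and 264 in day 1 cells and 307, 308 and 331 in myotubes (4.62 ± 0.0857 between myotubes and myoblasts, adjusted p = 3.76e-27). Igfbp4, a binding protein that mostly withholds IGFs from the receptor, went from 4.6, 6.91 and 5.67 CPM to 51.1, 49.5 and 46.5 and then to 149, 142 and 126 (4.58 ± 0.125, adjusted p = 4.36e-23). With DMSO it averaged 0.967 CPM in LbNOX, 1.68 in mitoLbNOX and 1.005 in NDI1 myoblasts, so a ratio to these lines would be larger. The order of Igf1 and Igfbp4 by size of change thus depends on the myoblast line. For Igf1, Igfbp5 and Igfbp4 no sample of the 3 states compared overlapped another state, and Igfbp4 was the member that still rose most between day 1 and day 4 (log2 1.515 ± 0.101, adjusted p = 8.37e-13).

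In all, 8 of 10 members were called between day 1 cells and myoblasts, where 63.6% of 12766 genes were. Between myotubes and myoblasts 6 were called, where 69.4% of genes were, and between myotubes and day 1 cells 6, where 35.6% were. Igfbp6 fell by 0.285 on the log2 scale from myoblasts to day 1 cells (adjusted p = 1.85e-05) and lay at 111 to 117 CPM in myotubes against 134 to 141 in myoblasts. Igfbp3, the main carrier of IGFs in blood, rose from between 0.640 and 1.47 CPM in myoblasts to between 6.45 and 11.3 in myotubes (log2 3.24 ± 0.596, adjusted p = 2.28e-05, and 1.85, adjusted p = 0.018, with well position). Igfbp7 rose by 0.72 ± 0.250 (adjusted p = 0.0125), but with well position by 0.535 (adjusted p = 0.13), and it was also lost without the samples numbered 1 (adjusted p = 0.119) or 3 (0.101). Igfbp2 had a log2 fold change of 0.785 (adjusted p = 0.138) without and -0.61 (adjusted p = 0.204) with well position, and it passed where the states were fitted alone (0.785, adjusted p = 0.0063) and without the count filter. All 3 myoblast DMSO samples were in outer wells and all 3 myotube ones in inner wells.

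Both adaptors had their highest mean in day 1 cells, while for the receptor only a rise from myoblasts to day 1 cells was called. Irs1 stood at 77.4, 79.2 and 64.7 CPM in day 1 cells, against 38.9, 34.6 and 41.3 in myoblasts and 36.9, 36.4 and 30.5 in myotubes. The day 1 samples lay above all others, 0.93 ± 0.125 above myoblasts on the log2 scale (adjusted p = 1.96e-07), and Irs1 fell by 1.08 ± 0.127 from day 1 to day 4 (adjusted p = 8.09e-08). Irs2 followed at lower levels, with 8.11, 7.06 and 5.93 CPM in day 1 cells against 3.24 to 4.11 in myoblasts (log2 0.90 ± 0.227, adjusted p = 0.0011). Its decrease to myotubes (-0.65, adjusted p = 0.0253) was lost without the samples numbered 1 (-0.43, adjusted p = 0.372), without the count filter (0.108) and with well position (0.212). Igf1r, the receptor, rose by 0.417 ± 0.135 from myoblasts to day 1 cells (adjusted p = 0.00837, and 0.14 without the samples numbered 2). Between myotubes and day 1 cells it differed by -0.212 ± 0.134 (adjusted p = 0.237) and between myotubes and myoblasts by 0.205 ± 0.137 (adjusted p = 0.185), both with overlapping samples.

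In control myoblasts, the clearest response to the inhibitors was a fall of Irs1, the adaptor that carries much of the IGF1 receptor signal in myoblasts. DMSO samples held 38.9, 34.6 and 41.3 CPM. Piericidin samples held 4.09, 3.36 and 2.65 CPM, antimycin samples 7.43, 8.46 and 6.98 and oligomycin samples 11.6, 9.23 and 13.4. No treated sample reached the lowest DMSO sample. Irs1 fell 11-fold with piericidin (log2 -3.46 ± 0.159, adjusted p = 7.54e-18), 4.89-fold with antimycin (-2.29 ± 0.141, adjusted p = 8.75e-15) and 3.34-fold with oligomycin (-1.74 ± 0.133, adjusted p = 2.41e-12). The 3 comparisons share their DMSO samples. All 3 calls held under every other setting tried.

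Irs2, the second adaptor, went the other way with both inhibitors of the respiratory chain. Its DMSO samples held 3.86, 3.24 and 4.11 CPM, its piericidin samples 7.85, 10.4 and 6.04 and its antimycin samples 9.94, 9.90 and 11.8, all above DMSO. The log2 fold changes were 1.16 ± 0.219 (adjusted p = 3.74e-05) and 1.53 ± 0.217 (adjusted p = 4.14e-07). With oligomycin the samples held 4.63, 5.73 and 2.74 CPM and overlapped DMSO (0.26 ± 0.226, adjusted p = 0.355). Per kb of exon, Irs1 was 7.08 times as high as Irs2 in DMSO, and the ratio came to 0.287 under piericidin, 0.5 under antimycin and 1.8 under oligomycin. So the more abundant adaptor transcript was Irs2 in the first 2 of these and Irs1 in the last.

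Over all members, 6 of 10 were called with piericidin, 7 with antimycin and 5 with oligomycin, where 61.7%, 63.2% and 50.8% of 11981 genes were called. The median log2 fold change over the members was 0.72, 0.76 and 0.42, against -0.004, -0.005 and -0.015 over all genes tested. These medians include Igfbp2, Igfbp3 and Igfbp7, which moved with well position, and all DMSO samples compared were in outer wells. They also include Igf1, with a mean of 5.667 counts in DMSO. The ligand Igf1 stayed at or below 0.668 CPM in all control samples treated for 10 hr. Igf1r went from 19.8, 17.9 and 18.8 CPM to 16.7, 12.5 and 15.5 with piericidin, without overlap, and the log2 fold change of -0.298 ± 0.170 did not pass (adjusted p = 0.13). With well position as a covariate Igf1r did pass, at -0.48 with piericidin and -0.415 with antimycin (adjusted p = 0.00833 and 0.0307).

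Among binding proteins, Igfbp5 rose with each inhibitor. From 11.4 to 13.7 CPM in DMSO it went to 18.7, 22.2 and 19.8 with piericidin (log2 0.705 ± 0.139, adjusted p = 6.43e-05), 30.7, 28.5 and 27.6 with antimycin (1.215 ± 0.137, adjusted p = 6.26e-09) and 21.4, 20.0 and 18.4 with oligomycin (0.66 ± 0.138, adjusted p = 0.000188). Treated and DMSO samples did not overlap. Igfbp6 rose slightly with antimycin (163 to 166 CPM against 134 to 141, log2 0.30 ± 0.0482, adjusted p = 2.87e-06) and fell with oligomycin (82.8 to 93.2 CPM, -0.62 ± 0.0488, adjusted p = 4.83e-12), and with piericidin it had a log2 fold change of -0.08 (adjusted p = 0.165). Igfbp4 rose with oligomycin, to 14.3, 11.5 and 11.9 CPM (1.14 ± 0.273, adjusted p = 0.000832). Its rise with piericidin (0.73 ± 0.276, adjusted p = 0.023) was lost whichever replicate number was left out, with adjusted p between 0.0749 and 0.128.

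Of the binding proteins that moved with well position, Igfbp2 and Igfbp7 rose with piericidin and antimycin, with and without position in the fit. Igfbp2 held 14, 27.5 and 16.4 CPM in DMSO, all 3 from outer wells. With piericidin it held 112 and 118 in the inner wells and 36.1 in the outer one, with antimycin 143, 62.9 and 155, all inner, and with oligomycin 33.8 (outer), 36.3 and 89.3 (both inner). The log2 fold changes were 2.23 ± 0.627 for piericidin (adjusted p = 0.00284), 2.66 ± 0.630 for antimycin (adjusted p = 0.000539) and 1.46 ± 0.626 for oligomycin (adjusted p = 0.0529), and with well position they were 1.03 (adjusted p = 0.0179), 1.12 (0.0142) and 0.37 (0.435). The oligomycin value passed with the replicate block (adjusted p = 0.0456), DESeq2 (0.0424) or its size factors (0.0495), without the count filter, with only the groups compared (0.0119), with plate row A or H (1.015, adjusted p = 0.0461) and without the samples numbered 2 (0.0429), and not without those numbered 1 (0.0956) or 3 (0.46). Igfbp7 rose with antimycin, to 64.8, 63.9 and 69.1 CPM from 17.8, 43.9 and 23.6 (1.235 ± 0.239, adjusted p = 4.84e-05, and 0.95, adjusted p = 0.00134, with position). Its call with piericidin (0.73, adjusted p = 0.00956, and 0.54, adjusted p = 0.0443, with position) was lost without the samples numbered 1 (0.47, adjusted p = 0.0661) or 3 (0.57, adjusted p = 0.171). That with oligomycin (0.58, adjusted p = 0.0456) was lost with position (0.39, adjusted p = 0.162), with only the groups compared (0.093) and without the samples numbered 1 (0.247) or 3 (0.363). Igfbp3 did not pass with piericidin (1.32, adjusted p = 0.182) or oligomycin (0.80, adjusted p = 0.474). It was called with antimycin (1.97 ± 0.819, adjusted p = 0.0369) and not with position (0.25, adjusted p = 0.766) or plate row A or H (0.229), nor without the samples numbered 1 (0.133) or 3 (0.204).

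**Figure D3:**
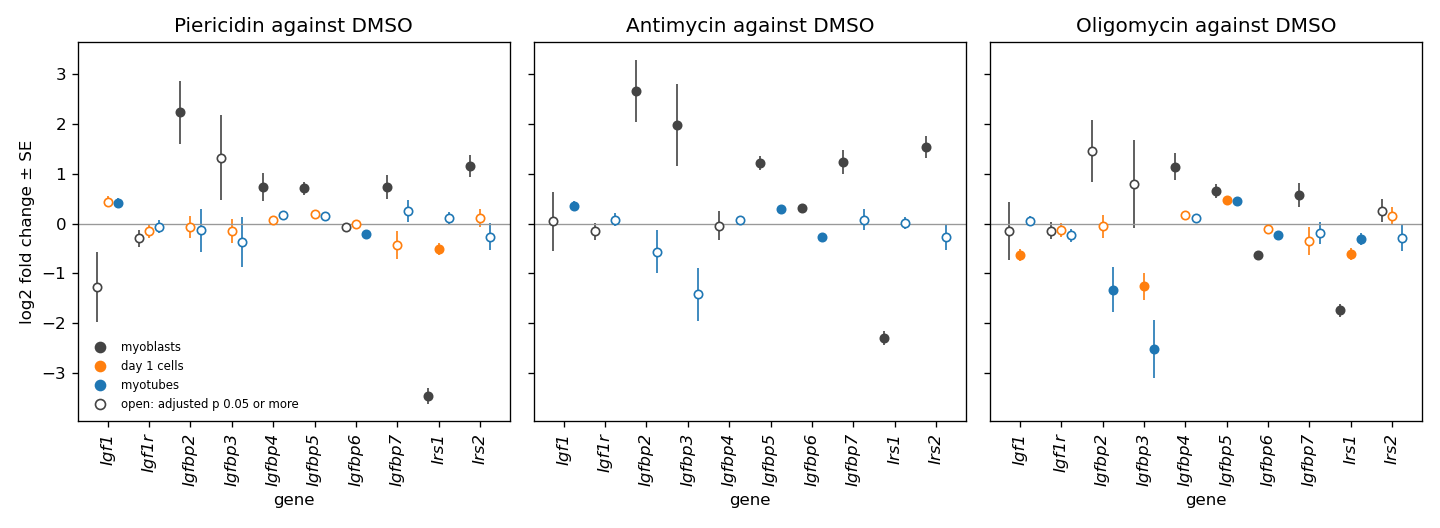
Log2 fold change against DMSO with its SE (vertical axis) for each gene under piericidin, antimycin and oligomycin in control myoblasts, day 1 cells and myotubes, with filled points where the adjusted p was below 0.05. Antimycin was not given to day 1 cells. Irs1 stood at -3.46, -2.29 and -1.74 in myoblasts and between -0.605 and 0.122 in the other states.

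The fall of Irs1 with piericidin was much smaller in the 3 lines that carry another route for NADH oxidation. With piericidin, Irs1 held 38.2, 33.4 and 31.1 CPM in LbNOX myoblasts, 29.2, 28 and 27.8 in mitoLbNOX and 35.0 and 32.9 in NDI1, all far above the control line (2.65 to 4.09). The DMSO samples of these lines ranged from 37.7 to 44.0, from 37.9 to 41.4 and from 39.5 to 39.8 CPM. Tested as an interaction of line and inhibitor, the response was higher than in the control line by 3.20 ± 0.203 on the log2 scale in LbNOX (adjusted p = 7.1e-14). The same difference was 2.97 ± 0.204 in mitoLbNOX (adjusted p = 5.02e-13), and in NDI1 it was 3.24 ± 0.222 (adjusted p = 3.78e-13). The 3 tests share the control line's samples.

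With antimycin the lines differed. Irs1 held 27.8, 26.0 and 29.1 CPM in LbNOX myoblasts but 7.77, 8.21 and 10.9 in mitoLbNOX, next to 7.43, 8.46 and 6.98 in the control line. The interaction was 1.77 ± 0.188 for LbNOX (adjusted p = 3.55e-09) and 0.18 ± 0.198 for mitoLbNOX (adjusted p = 0.534). With oligomycin, LbNOX myoblasts held 12.8, 17.5 and 15 CPM against 11.6, 9.23 and 13.4, with an interaction of 0.33 ± 0.185 (adjusted p = 0.325). So in LbNOX myoblasts Irs1 fell less than in the control line under piericidin and antimycin, and the difference under oligomycin did not pass the test. Of 7 markers of the integrated stress response (ISR), all 7 rose with each inhibitor in control myoblasts, and the interaction was lower for 7 of 7 with LbNOX under piericidin and antimycin and for 5 of 7 under oligomycin. It was also lower for 7 of 7 with mitoLbNOX and NDI1 under piericidin, and for 6 of 7 with mitoLbNOX under antimycin, where the interaction of Irs1 did not pass. In myotubes with oligomycin all 7 rose, with a median log2 fold change of 3.23, beside -0.31 for Irs1. Whether this list has a part in the level of Irs1 was not tested.

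Irs2 changed in the opposite sense to Irs1 in the interactions with piericidin and in that of LbNOX with antimycin. For LbNOX with oligomycin its interaction did not pass (-0.59 ± 0.321, adjusted p = 0.31). With piericidin Irs2 held 5.73, 4.29 and 4.06 CPM in LbNOX, 5.45, 5.83 and 4.85 in mitoLbNOX and 5.49 and 4.98 in NDI1, all below the control line (6.04 to 10.4). The interactions were -1.10 ± 0.311 (adjusted p = 0.00447), -0.96 ± 0.308 (0.0127) and -0.92 ± 0.345 (0.0314). They were lost without the samples numbered 2, at -0.65 (adjusted p = 0.248), -0.61 (0.275) and -0.67 (0.339), and the latter pair also without the samples numbered 1 (0.0582 and 0.309) and without the count filter (0.0769 and 0.163). That of NDI1 was lost with only the groups compared as well (0.086). The NDI1 groups hold only samples numbered 1 and 2, so for every NDI1 result, leaving out either number leaves 1 sample a group, assumed to vary like the other groups. With antimycin the interaction was -1.315 ± 0.309 for LbNOX (adjusted p = 0.000679) and -1.12 ± 0.307 for mitoLbNOX (adjusted p = 0.00539). The first held under every other setting tried, and the second was lost without the samples numbered 1 (adjusted p = 0.0536) or 2 (0.0906). Per kb, Irs1 was above Irs2 under piericidin in these lines, 5.04-fold with LbNOX, 3.65-fold with mitoLbNOX and 4.48-fold with NDI1, and 3.75-fold under antimycin with LbNOX. With mitoLbNOX under antimycin Irs1 (0.979 ± 0.184 CPM per kb) and Irs2 (0.959 ± 0.175) lay within their SDs.

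**Figure D4:**
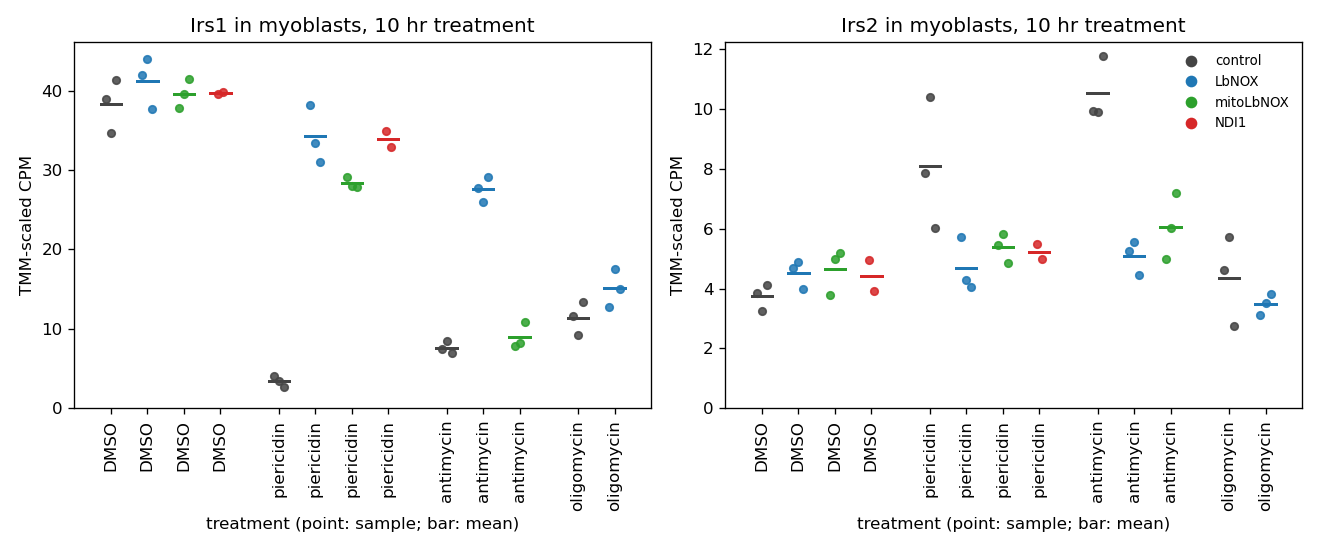
Level of Irs1 and Irs2 (TMM-scaled CPM, linear axes from 0) in myoblasts of the 4 lines after 10 hr of DMSO, piericidin, antimycin or oligomycin, with samples as points and group means as bars. With piericidin the control line held 2.65 to 4.09 CPM of Irs1 and the other lines 27.8 to 38.2.

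Counted over the members, the interaction with LbNOX was called for 2 of 10 under piericidin (44.3% of 11981 genes), 7 under antimycin (51.5%) and 2 under oligomycin (7.98%). It was called for 2 with mitoLbNOX under piericidin (42.8% of genes), 3 under antimycin (31.7%) and 4 with NDI1 under piericidin (42.7%). Igf1r fell in LbNOX myoblasts with antimycin, to 5.34, 9.56 and 9.95 CPM from 16.1 to 19.5 in DMSO, and the control line held 20.7, 14.4 and 14.5 (interaction -0.93 ± 0.247, adjusted p = 0.00233, and -0.52, adjusted p = 0.0824, without the samples numbered 1). Under the same pair of conditions, 7 of 8 p53 target genes had a called, higher interaction, and with mitoLbNOX 2 of 8 had a higher and 1 a lower one. The part of these genes in the level of Igf1r was not tested. In mitoLbNOX with antimycin Igf1r held 8, 13.2 and 11.4 CPM (interaction -0.69, adjusted p = 0.0292), a call lost with well position (-0.535, adjusted p = 0.0531), with only the groups compared (0.0556) and without the samples numbered 1 (-0.30, adjusted p = 0.396) or 3 (-0.78, adjusted p = 0.0962). The interaction of NDI1 with piericidin was 0.68 for Igf1r (adjusted p = 0.0398), and it was lost without the samples numbered 3, which touches no NDI1 sample (adjusted p = 0.0815), and with a single NDI1 sample left in each group (0.103 and 0.117).

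Of the binding proteins, Igfbp5 had a lower response in LbNOX with antimycin (-0.72 ± 0.207, adjusted p = 0.00462) and in NDI1 with piericidin (-0.75 ± 0.232, adjusted p = 0.00928). In the first of these it held 6.23, 11.9 and 8.02 CPM, beside 27.6 to 30.7 in the control line. Both were lost without the samples numbered 1 (-0.35, adjusted p = 0.236, and -0.46, adjusted p = 0.241), and the first also without those numbered 3 (0.0576). Igfbp6 had a higher response in LbNOX with oligomycin (105, 103 and 107 CPM beside 88.3, 93.2 and 82.8, interaction 0.34 ± 0.0688, adjusted p = 0.00146, and 0.051 without the samples numbered 1) and with antimycin (0.20 ± 0.0680, adjusted p = 0.0146, 0.095 and 0.0531 without the samples numbered 1 or 2, and 0.397 without the count filter). Igfbp7 had a lower one in LbNOX with antimycin (-1.06 ± 0.339, adjusted p = 0.00975). With position it was -0.86 (adjusted p = 0.0241), and the call was lost without the samples numbered 3 (adjusted p = 0.153).

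Igfbp4 and Igfbp5 also differed between the lines before any inhibitor. In DMSO, Igfbp4 held 4.6, 6.91 and 5.67 CPM in the control line and 0.511, 0.902 and 1.49 in LbNOX myoblasts, 5.95-fold lower (log2 -2.57 ± 0.333, adjusted p = 6.62e-06). Igfbp5 held 6.90, 5.93 and 6.23 CPM in LbNOX myoblasts, 2.01-fold below the control line (-1.01 ± 0.148, adjusted p = 4.42e-05). These were the 2 members called between these groups, where 2.68% of 11981 genes were. In mitoLbNOX and NDI1 myoblasts Igfbp4 lay between 0.860 and 2.36 CPM with DMSO, also below the control line, which was not tested. Igf1 held 1.96, 1.48 and 1.02 CPM in LbNOX myoblasts against 0.276, 0.635 and 0.457 (log2 1.66 ± 0.482, adjusted p = 0.0606, and 1.73, adjusted p = 0.0486, with well position), and 3.02 and 2.50 in NDI1. The positive interactions of Igfbp4 with LbNOX under antimycin (1.5 ± 0.457, adjusted p = 0.00698) and oligomycin (1.63 ± 0.433, adjusted p = 0.0157) and with mitoLbNOX under antimycin (1.40 ± 0.429, adjusted p = 0.0123) start from these low DMSO levels. All 3 were lost without the samples numbered 1 or 2, with adjusted p between 0.0687 and 0.231. Line and transgene cannot be told apart here.

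Chloramphenicol for 48 hr called 1 of 9 members tested in control myoblasts, where 8.45% of 11704 genes were called. Irs1 held 28.6 and 30.3 CPM against 44.7 and 38.1 in the 48 hr DMSO samples (log2 -0.445 ± 0.112, adjusted p = 0.043). The call was lost with DESeq2 (adjusted p = 0.0632), with replicate number as a block (0.0538) and in a fit of the 2 groups alone (0.0891). Igfbp4 held 13.4 and 11.8 CPM against 5.72 and 5.61, without overlap, and did not pass (1.19 ± 0.345, adjusted p = 0.0703), while it did with well position (1.43, adjusted p = 0.0488), in a fit of the 2 groups alone (adjusted p = 0.0214) and without the count filter (0.00362). With LbNOX the interaction was called for 0 of 9 members, of which 0 had an unadjusted p under 0.05 and 0 were called by DESeq2, where 0.53% of genes were called by edgeR. Igf1 was not tested in these samples, since its counts were too low.

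In day 1 cells, fitted alone, Irs1 was lower with piericidin and with oligomycin. Irs1 held 53.5, 50.02 and 51.8 CPM with piericidin and 56.0, 50.1 and 38.6 with oligomycin, all below DMSO (64.7 to 79.2). The log2 fold changes were -0.51 ± 0.120 (adjusted p = 0.0483) and -0.605 ± 0.121 (adjusted p = 0.00395). Without the samples numbered 2 neither passed (adjusted p = 0.335 and 0.0539), and the first was also lost without those numbered 1 (0.252). Irs1 was the only member of 10 called with piericidin, where 2.75% of 11827 genes were. Oligomycin called 4 of 10, where 20.7% of genes were: Igf1 fell from 33.2, 31.3 and 27.9 to 18.0, 18.3 and 23.0 CPM (-0.63 ± 0.116, adjusted p = 0.00225, and 0.0614 without the samples numbered 1), Igfbp5 rose from 264 to 285 CPM to 344 to 420 (0.48 ± 0.0701, adjusted p = 0.000495), and Igfbp3 fell from 5.16 to 7.71 CPM to 1.55 to 3.13 (-1.26 ± 0.267, adjusted p = 0.00568, and 0.052 without the samples numbered 2). With piericidin Igf1 held 44.7, 38.8 and 41.8 CPM, above all DMSO samples, and did not pass (0.44 ± 0.110, adjusted p = 0.06), while it did with DESeq2 (adjusted p = 0.0284), with only the groups compared (0.0394) and without the count filter (0.0107). All day 1 samples were in outer wells, so the well covariate could not be fitted within this state.

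In myotubes, Irs1 did not respond to piericidin or antimycin beyond the spread. It held 36.9, 36.4 and 30.5 CPM with DMSO, 38.5, 42.4 and 30.7 with piericidin (0.12 ± 0.120, adjusted p = 0.632) and 34.4, 36.3 and 32.5 with antimycin (0.01 ± 0.118, adjusted p = 0.964). With oligomycin it held 27.1, 27.4 and 26.9 CPM, below all DMSO samples (-0.31 ± 0.121, adjusted p = 0.0494), and the call was lost with well position (adjusted p = 0.0583), the block (0.0514) and without the samples numbered 1 (0.293) or 2 (0.197). Against control myoblasts, the interaction of state and inhibitor was 3.63 ± 0.220 for piericidin (adjusted p = 6.35e-14), 2.35 ± 0.200 for antimycin (adjusted p = 9.57e-11) and 1.43 ± 0.194 for oligomycin (adjusted p = 1.72e-06). Irs2 held between 2.85 and 5.71 CPM in the untransduced myotubes with DMSO, piericidin, antimycin or oligomycin, and its interaction was -1.37 for piericidin (adjusted p = 0.00124, and 0.0939 without the samples numbered 2) and -1.76 ± 0.327 for antimycin (adjusted p = 5.91e-05). The ratio of Irs1 to Irs2 per kb lay between 4.29 and 7.14 in all 15 myotube groups.

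The ligand responded to the respiratory chain inhibitors in myotubes. Igf1 held 40.8, 41.9 and 39.8 CPM with DMSO, 47.9, 61.0 and 52.2 with piericidin and 55.6, 50.7 and 48.8 with antimycin, and no treated sample overlapped DMSO. The log2 fold changes were 0.42 ± 0.102 (adjusted p = 0.00873) and 0.36 ± 0.1 (adjusted p = 0.0173), and both were lost without the samples numbered 1 (adjusted p = 0.0534 and 0.218) or 2 (0.207 and 0.109). With oligomycin alone Igf1 held 40.0, 45.0 and 38.3 CPM (0.05 ± 0.102, adjusted p = 0.741), and piericidin added to oligomycin gave 50.5, 56.0 and 53.5 (0.37 ± 0.1 against oligomycin, adjusted p = 0.00908, and between 0.0536 and 0.0606 with 1 replicate number left out). In 5% oxygen it held 28.7, 27.3 and 28.6 CPM, below all DMSO samples (-0.48 ± 0.104, adjusted p = 0.00119).

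Binding proteins changed with each treatment of myotubes. Igfbp5 rose with oligomycin, from 307, 308 and 331 CPM to 443, 392 and 424 (0.45 ± 0.0659, adjusted p = 7.55e-06), and with antimycin, to 408, 385 and 355 (0.30 ± 0.0659, adjusted p = 0.00271, lost without the samples numbered 1 or 2 at 0.0866 and 0.138). It fell in 5% oxygen to 258, 268 and 246 (-0.24 ± 0.0662, adjusted p = 0.00846, and 0.0676 without the samples numbered 2). Igfbp4 rose with BAM15, to 189, 205 and 179 CPM from 149, 142 and 126 (0.52 ± 0.0609, adjusted p = 6.83e-07), and fell in 5% oxygen, to 84.8, 92.7 and 94.8 (-0.56 ± 0.0621, adjusted p = 1.56e-07). The same directions held on top of oligomycin, where BAM15 gave 184, 188 and 176 CPM (0.34 ± 0.0608, adjusted p = 0.000114) and 5% oxygen 83.4, 92.3 and 88.4 (-0.72 ± 0.0624, adjusted p = 1.7e-09), beside 156, 144 and 139 with oligomycin alone.

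Igfbp6 lay at 111, 117 and 117 CPM in DMSO myotubes and lower with every single agent, from 88.1, 94.9 and 86.1 in 5% oxygen (-0.31 ± 0.0601, adjusted p = 0.000362) to 105, 95.2 and 95.5 with piericidin (-0.21 ± 0.0603, adjusted p = 0.0319). The 5 single agents share these DMSO samples. Of their 5 calls, that in 5% oxygen held under every other setting tried, and the others were lost without the samples numbered 2, with adjusted p from 0.0876 to 0.392. That with piericidin was also lost with only the groups compared (0.0637) and that with oligomycin without the samples numbered 3 (0.0837). The receptor Igf1r rose in 5% oxygen to 27.7, 26.3 and 29.7 CPM from 24.0, 21.8 and 19.4 (0.42 ± 0.124, adjusted p = 0.0166, and 0.0652 and 0.313 without the samples numbered 2 or 3), and under oligomycin 5% oxygen gave 36.9, 25.03 and 28.1 beside 16.1, 18.4 and 19.5 (0.75 ± 0.126, adjusted p = 4.11e-05).

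In untransduced myotubes, Igfbp2 and Igfbp3 were lower with oligomycin and BAM15. Igfbp2 held 32.1, 37.1 and 31.5 CPM with DMSO, all in inner wells, 7.15 and 9.39 (outer) and 22.8 (inner) with oligomycin, and 14 (inner), 8.28 and 7.84 (outer) with BAM15. Its log2 fold changes were -1.33 ± 0.450 (adjusted p = 0.0252) and -1.69 ± 0.462 (0.00881), and with well position -0.62 (adjusted p = 0.113) and -0.91 (0.0331). Igfbp3 held 11.3, 6.45 and 9.61 CPM with DMSO, 1.22, 1.33 and 2.10 with oligomycin and 2.01, 1.39 and 1.24 with BAM15 (-2.51 ± 0.577, adjusted p = 0.00147, and -2.49 ± 0.576, adjusted p = 0.00246). With position these were -1.78 (adjusted p = 0.013) and -1.75 (0.0205). Without the samples numbered 2 the BAM15 calls had adjusted p of 0.157 for Igfbp2 and 0.051 for Igfbp3, and Igfbp2 with oligomycin was also lost without those numbered 1 (0.0807) or 2 (0.273). In myotubes transduced with GFP, Igfbp2 held 4.96 (outer) and 20.7 CPM (inner) with DMSO and 27.7 and 29.7 (inner) with oligomycin, the other direction without overlap (1.17 ± 0.655, adjusted p = 0.22, and 0.58 with position), and it passed without the count filter. Without the samples numbered 2 it was 2.45, from a single DMSO sample (outer) and a single oligomycin sample (inner). With LbNOX, Igfbp2 held 19.0, 27.7 and 26.7 CPM with DMSO and 30.7, 27.3 and 11.6 with oligomycin, which overlapped. Igfbp3 in GFP myotubes held 1.62 and 9.58 CPM with DMSO and 3.94 and 4.4 with oligomycin (-0.41, adjusted p = 0.766).

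Counts of called members in myotubes were 2 of 10 with piericidin (8.99% of 12491 genes), 3 with antimycin (12.9%), 5 with oligomycin (33.3%), 5 with BAM15 (25.4%) and 5 in 5% oxygen (22.1%). On top of oligomycin they were 2 with piericidin (20.9%), 2 with BAM15 (26.1%) and 6 with 5% oxygen (33.3%). With piericidin these were Igf1 and Igfbp5 (-0.18, adjusted p = 0.0495, lost with position at 0.142, the block at 0.0651, only the groups compared at 0.054 and without the samples numbered 1 or 2 at 0.388 and 0.186), and with BAM15 Igfbp4 and Igf1 (-0.30, adjusted p = 0.0304, lost with only the groups compared at 0.135 and without the samples numbered 2 or 3 at 0.228 and 0.15). Beside Igf1r and Igfbp4, the 6 in 5% oxygen were Igfbp5, Irs1, Igfbp3 and Igf1. Igfbp5 held 334, 318 and 301 CPM beside 443, 392 and 424 with oligomycin alone (-0.38 ± 0.0660, adjusted p = 6.21e-05), below all 3 and called under every other setting tried. Irs1 held 32.0, 35.3 and 38.4 CPM beside 27.1, 27.4 and 26.9 (0.40 ± 0.121, adjusted p = 0.0136, and 0.0787 and 0.0718 without the samples numbered 1 or 2). Igfbp3 held 9.87 and 8.14 CPM in inner wells and 0.910 in an outer one, beside 1.22, 1.33 and 2.10 (2.03 ± 0.586, adjusted p = 0.00906). With position it was 1.47 (adjusted p = 0.0323), and without the samples numbered 1 or 2 it was lost (0.176 and 0.171). Igf1 held 31.9, 35.8 and 33.5 CPM beside 40.0, 45.0 and 38.3 (-0.27 ± 0.104, adjusted p = 0.0482), a call lost with the block (0.0537), with position (0.0686), with only the groups compared (0.0765) and without the samples numbered 1 (0.167) or 2 (0.239). In 5% oxygen against DMSO all 8 proliferation genes were lower, with a median log2 fold change of -2.36, beside which the values of Igf1, Igf1r, Igfbp4, Igfbp5 and Igfbp6 stand. The part of remaining cycling cells in these values was not tested. The interactions of state and inhibitor were called for 6 of 10 members with piericidin (46.5% of 12766 genes), 7 with antimycin (47.9%) and 5 with oligomycin (29%).

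**Figure D5:**
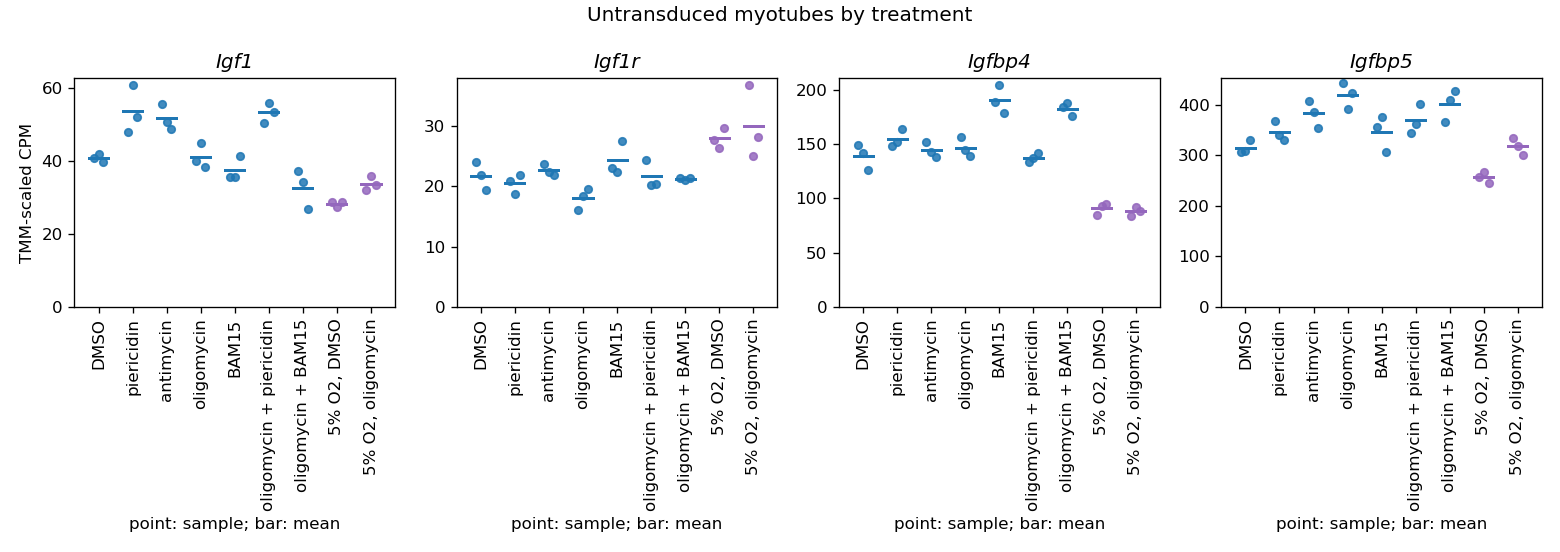
Level of Igf1, Igf1r, Igfbp4 and Igfbp5 (TMM-scaled CPM, linear axes from 0) in untransduced myotubes after 10 hr of each drug or DMSO, with 3 samples per group as points and means as bars (purple for 5% oxygen, which began the night before). Igfbp4 held 179 to 205 CPM with BAM15 and 84.8 to 94.8 in 5% oxygen, against 126 to 149 with DMSO.

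Myotubes transduced with GFP gave 4 of 10 members called with oligomycin, where 25.9% of 12397 genes were. Irs1 fell from 32.3 and 29.1 CPM to 22.0 and 19.3 (-0.59 ± 0.136, adjusted p = 0.00513) and Irs2 from 4.77 and 4.46 to 2.48 and 2.20 (-0.99 ± 0.327, adjusted p = 0.0371). Igfbp5 rose from 373 and 365 CPM to 482 and 504 (0.405 ± 0.0733, adjusted p = 0.000823) and Igfbp6 fell from 91.9 and 87.6 to 75.9 and 71.2 (-0.30 ± 0.0761, adjusted p = 0.00919). All 4 calls were lost without the samples numbered 2 (adjusted p from 0.0515 to 0.218), which leaves 1 sample in some groups, assumed to vary like the others. That of Irs2 was also lost with the block (0.0506), well position (0.0839), DESeq2 (0.0852) and no count filter (0.154), and those of Irs1 and Irs2 without the samples numbered 1 (0.0864 and 0.312). In LbNOX myotubes, Irs1 held 30.3, 34.1 and 28.6 CPM with DMSO and 25.5, 20.5 and 24.1 with oligomycin. The interaction of LbNOX with oligomycin was called by edgeR for 0 of 10 members and for 0 of 12397 genes (0%). At an unadjusted p under 0.05 there were 2 members and 525 genes, and DESeq2 called 0 members and 1 gene.

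Other genes of the axis were read from a list of 14, of which 7 were tested across states and 5 in myoblasts. Igf2, the second ligand, averaged 0.263 CPM in control myoblasts, 79.4 in day 1 cells and 85.4 in myotubes (log2 8.21 ± 0.274 between myotubes and myoblasts, adjusted p = 5.9e-21). Of the 7, 5 were higher in myotubes and 1 lower, with a median log2 fold change of 2.12 beside 0.039 over all genes, and Pappa2, a protease that cleaves IGFBP5, was among those higher (2.78 ± 0.763, adjusted p = 0.00218). In control myoblasts 2 of 5 rose under piericidin, 4 under antimycin and 2 under oligomycin, and 0 fell, where 61.7, 63.2 and 50.8% of all genes were called in either direction. Stc2, a secreted inhibitor of the protease that cleaves IGFBP4, rose with each (log2 3.38 ± 0.232, 3.30 ± 0.232 and 2.50 ± 0.233), and Pappa, the gene of that protease, rose with antimycin (3.19 ± 0.536). Htra1, a secreted protease that can cleave binding proteins, rose by 2.85, 3.26 and 2.70, but it shares the plate pattern: its samples in rows A and H lay 1.11 below the others, and 11 of 13357 genes lay further from 0.

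Downstream of the receptor, 34 of 36 listed signalling genes were tested in myoblasts. With piericidin 7 rose and 12 fell, with antimycin 10 and 13, and with oligomycin 3 and 10, and the median log2 fold changes were -0.123, -0.145 and -0.069. Of all genes, 61.7, 63.2 and 50.8% were called in these comparisons, so the counts set the signalling genes little apart from the rest. Rheb, the GTPase that activates mTORC1, rose (1.59 ± 0.0783 with piericidin, 1.25 ± 0.0780 with antimycin and 1.12 ± 0.0777 with oligomycin). Pik3r3, a regulatory subunit of PI3-kinase, fell (-1.48 ± 0.232, -1.97 ± 0.241 and -1.80 ± 0.234), and Deptor, an inhibitor of mTOR, fell with piericidin (-1.65 ± 0.104) and oligomycin (-1.81 ± 0.104). Of 11 tested targets of FOXO factors, which IGF signalling restrains, 3 rose and 6 fell with piericidin, 3 and 5 with antimycin and 3 and 7 with oligomycin. The 3 that rose were Klf15, which was close to 0 in DMSO myoblasts, Gadd45a and Eif4ebp1, and Ccng2 and Sesn1 fell with each inhibitor. In myotubes against myoblasts 18 of 35 signalling genes were higher and 4 lower, and 10 of 12 FOXO targets higher and 1 lower, where 69.4% of all genes were called, a larger share than of the signalling genes. Of the proliferation genes, with piericidin 1 of 8 rose and 7 fell, with antimycin 8 fell and with oligomycin 7 fell.

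By likeness over the means of the 13 myoblast groups treated for 10 hr, Kazald1 (Pearson r = 0.98) and Plekhg5 (0.98) lay closest to Irs1, and Lamtor3 (0.95) and Arfgef2 (0.94) to Irs2. Over the 9 groups of untransduced myotubes, Pitpnm1 and Npdc1 lay closest to Igf1 (0.97 each) and Osbpl1a and Hsd11b1 to Igfbp4 (0.96 each). These are descriptions over few points that share controls, chosen as the highest of all genes.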

How the data were processed

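RNA-seq (Smart-seq2, polyA, not strand-specific) was made from 96 samples. The authors quantified transcripts with kallisto (version 0.44 in the submitters' processing notes) against mouse transcripts with the 4 transgenes added, summed them to genes and deposited estimated counts, already whole numbers, for 54146 genes and 4 transgenes. Totals ran from 6458295 to 15366745 per sample (median 10336588.5), which sets the counting error of low genes such as Igf1 in myoblasts. Without strand, reads of overlapping genes cannot be told apart. Of 87 replicate pairs, 0 held identical values.

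Groups came from the labels. Each of 6 fits used edgeR 4.0.16 (R 4.3.3, limma 3.58.1), TMM factors, a minimum of 16 counts in every replicate of at least 1 group, the quasi-likelihood F test and Benjamini-Hochberg adjustment over all genes of the fit, giving 30 comparisons. SEs were derived from each log2 fold change and its F statistic (size over root F). The code was tested on simulated data. Alternatives were DESeq2 1.42.0 and its size factors, no filter, only the groups compared, replicate block, well position and each replicate number left out. Members and lists were chosen with earlier results of these data known. All members are named, and from other lists at most 3 genes per list and direction, those that changed most among called genes without overlap between groups. Likeness used genes with a mean of at least 50 counts and log2 CPM with a prior of 2. Between groups, deviations of samples with the same replicate number correlated weakly, with a mean between -0.041 and 0.054 over the 6 fits. Promoters are RefSeq's and gene positions GENCODE's, both on GRCm38.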

Additional observations from a re-analysis of the deposited data

Results flagged for a closer look

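Each value here is the difference between the responses of 2 groups to the same treatment, tested as an interaction with edgeR and adjusted over all genes (adjusted p below 0.05). In all, 38 such differences of the 10 members passed over 11 interactions, and they share control samples. Values are log2, and a positive one means a higher response in the line or state named first in each sentence.

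Between LbNOX and control myoblasts, the response to piericidin differed by 3.20 for Irs1 and -1.104 for Irs2. The LbNOX response to antimycin differed by -0.926 for Igf1r, 1.5 for Igfbp4, -0.717 for Igfbp5, 0.201 for Igfbp6, -1.061 for Igfbp7, 1.767 for Irs1 and -1.315 for Irs2. The LbNOX response to oligomycin differed by 1.63 for Igfbp4 and 0.34 for Igfbp6. Between mitoLbNOX and control myoblasts, piericidin gave 2.971 for Irs1 and -0.956 for Irs2, and antimycin gave -0.69 for Igf1r, 1.403 for Igfbp4 and -1.123 for Irs2. Between NDI1 and control myoblasts, piericidin gave 0.677 for Igf1r, -0.754 for Igfbp5, 3.241 for Irs1 and -0.92 for Irs2.

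Between myotubes and control myoblasts, the response to piericidin differed by 1.749 for Igf1, -2.316 for Igfbp2, -0.502 for Igfbp4, -0.501 for Igfbp5, 3.63 for Irs1 and -1.37 for Irs2. The myotube response to antimycin differed by -3.183 for Igfbp2, -3.345 for Igfbp3, -0.867 for Igfbp5, -0.522 for Igfbp6, -1.105 for Igfbp7, 2.35 for Irs1 and -1.762 for Irs2. The myotube response to oligomycin differed by -2.776 for Igfbp2, -3.297 for Igfbp3, -1.012 for Igfbp4, 0.40 for Igfbp6 and 1.432 for Irs1. With well position, the differences of Igfbp2 were -1.22 for piericidin (adjusted p = 0.0433) and -1.46 for antimycin (0.0366), and those of Igfbp3 to antimycin (-1.61, adjusted p = 0.159), Igfbp7 to antimycin (-0.86, 0.111) and Igfbp2 and Igfbp3 to oligomycin (-1.02, 0.233, and -1.41, 0.356) did not pass. The value of Igf1 rests on 0, 4 and 1 counts in piericidin myoblasts and was lost without the count filter (adjusted p = 0.0597) and without the samples numbered 1 (0.08) or 3 (0.164). For piericidin, the call of Igfbp2 was lost without the samples numbered 1 (adjusted p = 0.0754), that of Igfbp4 without those numbered 2 (0.0926) or 3 (0.0687) and with only the groups compared (0.0665), and that of Irs2 without those numbered 2 (0.0939). Without the samples numbered 1 or 3, Igfbp7 to antimycin had adjusted p of 0.0571 and 0.0744, and without those numbered 3 Igfbp3 to oligomycin had 0.0948.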

How the results depend on the processing

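Of 118 called member values, 0 changed sign under any alternative and 56 held under every planned one. The cause of a change was not tested. For 19 of 37 myoblast and 8 of 27 myotube samples, the replicate number with the highest mean correlation of deviations, over other groups, was their own. In myoblasts the mean correlation between groups was 0.034 for the same number and -0.017 for other numbers. In myotubes these were -0.007 and 0.004. The share expected without pairing was not computed, and whether the numbers pair the samples was not tested. With replicate number as a block, 7472 genes were called with piericidin in control myoblasts in place of 7389, members called went from 5 to 6 with oligomycin in control myoblasts, from 1 to 0 with chloramphenicol, from 2 to 1 for piericidin added to oligomycin, from 5 to 4 for oligomycin in myotubes, from 6 to 5 for 5% oxygen under oligomycin and from 4 to 3 for oligomycin with GFP, and LbNOX by chloramphenicol called 22 genes in place of 62.

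Without the count filter, members called were 4 for LbNOX by piericidin, 5 for mitoLbNOX by antimycin, 2 for chloramphenicol, 1 for LbNOX by chloramphenicol (483 genes), 3 for piericidin in day 1 cells (613 genes), 1, 5 and 4 in myotubes for piericidin, antimycin and piericidin added to oligomycin, and 1 for LbNOX by oligomycin in myotubes (197 genes). DESeq2's Wald test called 0 members for chloramphenicol, 127 genes for LbNOX by chloramphenicol, 2 members for piericidin in day 1 cells and 1 gene for LbNOX by oligomycin in myotubes. With only the groups compared, 171 genes were called for LbNOX against luciferase and 645 for chloramphenicol, and 2, 1 and 1 members for piericidin in day 1 cells, piericidin added to oligomycin and BAM15 added to oligomycin. With outer or inner well, 2944 genes were called between myotubes and day 1 cells, 3 members (2316 genes) for state by oligomycin, and 2, 3 and 1 members for chloramphenicol, oligomycin in myotubes and piericidin added to oligomycin. The covariate of plate row A or H, chosen after seeing the data, gave 2, 3 and 1 for those and 2 for piericidin in day 1 cells.

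With 1 replicate number left out, members called ranged from 3 to 4 between myotubes and day 1 cells, and for LbNOX from 1 to 3 with piericidin, 3 to 5 with antimycin and 0 to 2 with oligomycin (328 to 471 genes). They ranged from 1 to 2 and 0 to 3 for mitoLbNOX with piericidin and antimycin, from 1 to 3 for NDI1, from 0 to 1 (25 to 47 genes) and 2 to 4 (1379 to 1425) for piericidin and oligomycin in day 1 cells. In myotubes they ranged from 0 to 2 (435 to 618 genes) with piericidin, 0 to 3 (667 to 1076) with antimycin, 2 to 4 (2603 to 3385) with oligomycin, 1 to 5 (1388 to 2244) with BAM15, 3 to 5 (1654 to 1975) in 5% oxygen, 0 to 2 (1384 to 2120) for piericidin added to oligomycin, 1 to 2 for BAM15 added, 3 to 7 (2690 to 3708) for 5% oxygen under oligomycin and 1 to 4 (1401 to 2975) for oligomycin with GFP. Genes called ranged from 101 to 164 for LbNOX against luciferase, 0 to 1 for LbNOX by oligomycin in myotubes and 2379 to 2495 for state by oligomycin. Leaving out a replicate was not run for chloramphenicol, where no residual degrees of freedom remain.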

Other observations

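Transduced myotubes with piericidin entered no comparison. Igf1 held 42.7 and 44.8 CPM with GFP, beside 38.2 and 36.3 with DMSO, and 52.4, 54.3 and 46.1 with LbNOX, beside 41.7, 38.6 and 35.5. Irs1 held 27.5 and 32.7 CPM with GFP and 35.6, 31.6 and 30.6 with LbNOX, beside 32.3 and 29.1, and 30.3, 34.1 and 28.6, with DMSO.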
